A study of Mus musculus with 23 samples.

Results

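Strc, Slc47a1, Atp6ap1l, Spats2, Fkbp10, Lamb1 and Fam20a are 7 of the 24063 genes in the deposited tables. They were selected on the measured values themselves, for almost no reads in control plasma cells and a high level in most of 5 mouse myeloma lines. Their levels in control and tumour cells are therefore given as a description, with no test. All 7 were found in all 23 tables. Only Spats2 was high in every line, so the 7 do not share 1 pattern: each of the other 6 had at least 1 line in which its mean stayed under 10 CPM (a gene's reads over all gene reads of its library, scaled to a depth common to all libraries).

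The libraries were made from cells sorted as CD138+B220-, the surface phenotype of plasma cells. The 3 Control libraries are from IgG1-Cre bone marrow, that is, from mice that carry only this Cre recombinase, which acts in germinal centre B cells. The 4 VQ lines, VQ-D1, VQ-D2, VQ-D4 as well as VQ-D5, are myeloma cells with the genotype Vκ*MYC; NrasLSL Q61R/+; IgG1-Cre, in which Cre switches on an oncogenic Nras allele. The line t-VK12653 carries Vκ*MYC alone, a MYC transgene that becomes active in B cells that have been through the germinal centre. Each line was taken from recipients of transplanted cells of 1 donor and has 4 libraries. VQ-D1 and t-VK12653 were each sampled in 2 bone marrow and 2 spleen libraries, VQ-D2 in 2 spleen and 2 lymph node libraries and VQ-D5 in 2 bone marrow and 2 lymph node libraries. VQ-D4 has 1 library each from bone marrow, spleen, lymph node and liver. No age is named in the labels, nor whether libraries of 1 line share a recipient. A spread within a line is a spread between libraries of 1 donor, and p-values between lines measure only that spread.

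Total counts ran from 2685579 to 10047314 per library, with a median of 4626666. The ribosomal precursor Rn45s took 16.4% to 27.3% of the counts. The plasma cell marker Sdc1, which encodes CD138, was at 843 CPM in Control and between 357 and 996 CPM in the lines. The whole list of 9 plasma cell markers summed to between 38770 and 65990 CPM in Control and between 4963 and 13980 CPM in the tumour libraries. Of these 9, Igj, the joining chain of secreted antibodies (-4.42 in log2, edgeR adjusted p = 0.0397), and Slamf7 (-1.10) were lower in the lines and none was higher, and neither call was made with 1 Control library left out. Neutrophil markers, 17 genes, summed to between 3347 and 10010 CPM in Control against 4.35 to 1275 CPM in the tumour libraries. All 17 were lower in the tumour lines by edgeR's test, as were 12 of 13 erythroid, 8 of 11 B cell, 8 of 13 macrophage and 8 of 13 T and NK cell markers, where 8.46% of all genes were lower. Without Control replicate 2, the library with the highest neutrophil sum, 8 of 17 neutrophil, 5 of 13 erythroid, 5 of 13 macrophage and 3 of 11 T and NK cell markers passed, and DESeq2 called 11 neutrophil markers. The part of these cells in the Control levels was not tested. In such bulk libraries, fewer cells of a type and less RNA per cell cannot be told apart.

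The 7 genes have little in common by function. Stereocilin, the product of Strc, is an extracellular protein of the stereocilia of inner ear hair cells. Slc47a1 encodes MATE1, a transporter that exports organic cations and drugs in exchange for protons in kidney and liver. Fkbp10 encodes FKBP65, a prolyl isomerase of the endoplasmic reticulum that helps collagen to fold, and Lamb1 encodes the laminin β1 chain, which joins an α and a γ chain to form the laminin trimers of basement membranes. Fam20a is a pseudokinase of the secretory pathway that activates Fam20c, the kinase that phosphorylates many secreted proteins. Atp6ap1l is named for its likeness to Atp6ap1, an accessory subunit of the proton pump of acidic organelles (V-ATPase). Spats2 is named for its link to spermatogenesis.

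On the GRCm38 build the genes lie at separate sites. Strc spans 121363248 to 121381370 on the minus strand of chromosome 2, and Atp6ap1l spans 90883439 to 90905355 on the minus strand of chromosome 13. Spats2 is on chromosome 15 from 99125926 to 99213215 and Lamb1 on chromosome 12 from 31265146 to 31329644, both on the plus strand. Chromosome 11 holds the other 3, Slc47a1 (61343400 to 61378842, minus strand), Fkbp10 (100415694 to 100424840, plus strand) and Fam20a (109669746 to 109723163, minus strand).

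The RefSeq table of promoters (GRCm38.p6, 250 bases before to 50 after a listed start) held 4 of the 7, Strc, Spats2, Lamb1 and Fam20a. The listed starts are not the ends of the gene spans given above. The windows of Strc, Spats2 and Fam20a lie wholly inside these spans, and the Lamb1 window covers the first base of its span. The sequence just outside the spans of Strc, Spats2 and Fam20a is therefore not described. The sequences of 3 are shown: Spats2, the only gene high in all 5 lines, Strc, the gene that was near 0 in the most lines, and Lamb1, whose level varied most with the tissue of the library. Capitals mark GGGCGG or its reverse complement CCGCCC, the core of the GC box. They were read 5′ to 3′ on the strand of the gene from chr15:99126595-99126894 (plus), chr2:121380891-121381190 (minus) and chr12:31265043-31265342 (plus).
Spats2: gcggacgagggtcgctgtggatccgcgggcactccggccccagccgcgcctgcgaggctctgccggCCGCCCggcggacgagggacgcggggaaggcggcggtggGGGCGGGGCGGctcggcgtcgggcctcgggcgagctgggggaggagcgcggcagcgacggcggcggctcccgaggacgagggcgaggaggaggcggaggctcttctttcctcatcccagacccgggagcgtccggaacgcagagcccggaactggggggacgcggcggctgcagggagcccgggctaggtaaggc
Strc: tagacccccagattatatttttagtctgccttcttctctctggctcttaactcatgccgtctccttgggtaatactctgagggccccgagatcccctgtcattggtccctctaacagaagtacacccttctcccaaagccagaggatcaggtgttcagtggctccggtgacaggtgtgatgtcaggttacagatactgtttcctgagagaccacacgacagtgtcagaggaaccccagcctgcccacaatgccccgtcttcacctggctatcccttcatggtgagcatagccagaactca
Lamb1: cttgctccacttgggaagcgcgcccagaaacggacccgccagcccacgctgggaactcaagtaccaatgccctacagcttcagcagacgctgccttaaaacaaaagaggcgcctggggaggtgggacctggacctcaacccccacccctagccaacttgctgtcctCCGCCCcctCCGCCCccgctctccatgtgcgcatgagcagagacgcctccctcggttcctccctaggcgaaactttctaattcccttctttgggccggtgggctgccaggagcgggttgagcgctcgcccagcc
The Spats2 window holds 44 CpG dinucleotides, the Lamb1 window 18, the Fam20a window 13 and the Strc window 5, where the median over 32851 promoters of this length is 7. GGGCGG was found on either strand 3 times in Spats2 (2 of the matches adjoin and share a base), 2 times in Lamb1 and 1 time in Fam20a, and 35.7% of all promoters hold it. No match was found in Strc. Neither CACGTG, the E-box that MYC binds (7.2% of promoters), nor TGANTCA, the AP-1 site (7.8%), was found on either strand of the 4 windows. A match or its absence describes these letters only.

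The plot of CPM by library shows every value of the 7 genes.

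**Figure D1:**
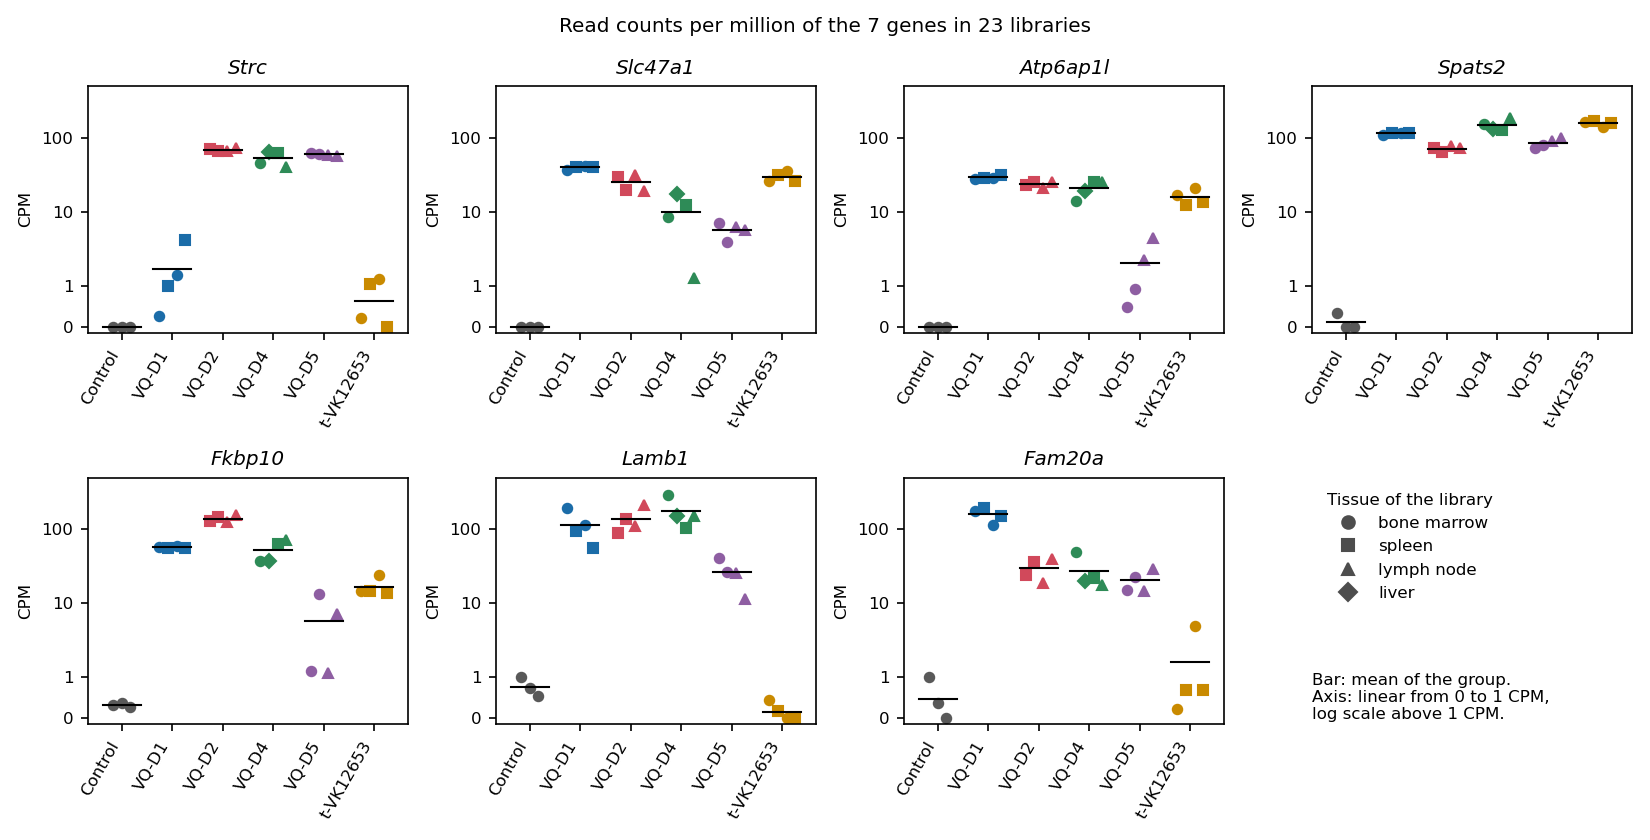
CPM of each gene (vertical axis, linear from 0 to 1 and logarithmic above) in the 3 Control libraries and the 4 libraries of each line; marker shapes give the tissue and bars the group mean. Control libraries lie below 1 CPM for all 7 genes, Spats2 is above 60 CPM in all 20 tumour libraries, and the low lines differ from gene to gene.

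Spats2 had the most even level. Its CPM was 0.331, 0 and 0 in the 3 Control libraries, which is 1 read in all. In the lines it was 163, 168.5, 139 and 156 in t-VK12653, 151, 131, 127 and 187 in VQ-D4, 110.3, 116, 115.5 and 114 in VQ-D1, 73.2, 79.8, 89.9 and 98.8 in VQ-D5 and 72.9, 63.9, 76.2 and 71.5 in VQ-D2. The lowest tumour library, at 63.9 CPM, was far above the highest Control library. By group means the order was t-VK12653 (157 ± 12.9 CPM, SD, n = 4), VQ-D4 (149 ± 27.3), VQ-D1 (114 ± 2.49), VQ-D5 (85.4 ± 11.3) and VQ-D2 (71.1 ± 5.24). The libraries of t-VK12653 and VQ-D4 overlapped, and so did those of VQ-D5 and VQ-D2, while VQ-D1 stood apart from both neighbours. Lines that stand apart are common, here and for the genes below. Among 12358 genes with a mean of at least 1 CPM, 39.7% to 61.8% had no overlap between 2 lines, depending on the pair. On the length-scaled TPM scale, Spats2 had the highest mean of the 7 in VQ-D4 (157 TPM), VQ-D5 (97.2) and t-VK12653 (164).

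Strc split the lines into 2 sets. It had no read in Control. It was at 71.0, 65.7, 66.7 and 72.2 CPM in VQ-D2, at 45.5, 64.4, 62.7 and 40.3 in VQ-D4 and at 62.3, 61.0, 58.4 and 56.8 in VQ-D5. The libraries of VQ-D1 held 0.26, 1.0, 1.39 and 4.13 CPM and those of t-VK12653 held 0.216, 1.04, 1.22 and 0 CPM. The step from the lowest high line, VQ-D4 (53.2 ± 12.1 CPM), to VQ-D1 (1.70 ± 1.69) was 31.4-fold. VQ-D1 and t-VK12653 overlapped. Over the whole group t-VK12653 held 11 reads of Strc and VQ-D1 held 50. A count of 0 in Control allows up to 0.316 CPM over the group (3 reads), so that pooled Strc was at least 168-fold higher in VQ-D4, 187-fold in VQ-D5 and 217-fold in VQ-D2, and at least 5.88-fold in VQ-D1 and 1.93-fold in t-VK12653. These floors cover counting error only.

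Slc47a1, the drug exporter, and Atp6ap1l also had no read in Control. Slc47a1 was highest in VQ-D1 (36.9, 40.5, 40.8 and 40.7 CPM), with t-VK12653 next at 25.7, 30.8, 35 and 26.2 CPM. It was at 29.0, 19.9, 31.2 and 19.1 CPM in VQ-D2, and these libraries overlapped with t-VK12653. VQ-D4 held 8.54, 17.2, 12.2 and 1.26 CPM, the last of these in lymph node, and VQ-D5 held 7.0, 3.9, 6.21 and 5.6 CPM. The gap between these low lines and the other 3 was 2.53-fold, from VQ-D2 (24.8 ± 6.21 CPM) to VQ-D4 (9.79 ± 6.70). The pooled level in VQ-D5, the lowest line, was still at least 18.1-fold above the Control floor. Slc47a1 is a liver gene, and the hepatocyte marker list summed to 3049 to 3967 CPM in VQ-D2 and 1165 to 1565 CPM in VQ-D5 against at most 250.6 CPM in all other libraries. Its highest line, VQ-D1, had a sum of at most 122.5 CPM, and the liver library of VQ-D4 one of 119 CPM. Those high sums were nearly all Trf, the transferrin gene (3340.0 CPM in VQ-D2), while albumin (Alb) had a mean of at most 6.9 CPM in any group. The part of liver cells in the Slc47a1 levels was not tested.

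Atp6ap1l was at 28.0, 28.4, 28.4 and 31.6 CPM in VQ-D1 and at 16.9, 12.5, 21.0 and 13.6 in t-VK12653. Between them lay VQ-D2 at 23, 25.2, 20.6 and 24.9 CPM and VQ-D4 at 13.8, 19, 25.4 and 25.5. VQ-D5 was the low line, with 0.483, 0.917, 2.24 and 4.34 CPM. All 4 libraries of VQ-D5 lay below every library of the other lines, and its mean of 1.99 ± 1.73 CPM was 8.02-fold below that of t-VK12653. VQ-D2 overlapped with VQ-D4, and VQ-D4 with t-VK12653. Per length, Atp6ap1l (58.8 TPM in VQ-D1) was above Slc47a1 (35.9 TPM) there, although its CPM was lower.

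Fkbp10, the collagen chaperone, had 1 read in each Control library (0.331, 0.372 and 0.264 CPM). VQ-D2 was the highest line with 128, 145, 125 and 153 CPM. VQ-D1 followed at 57.6, 55.0, 59.0 and 55.6 CPM and VQ-D4 at 37.5, 36.8, 63.6 and 72.3 CPM, and these overlapped. In t-VK12653 it was at 14.5, 14.4, 23.7 and 13.9 CPM. VQ-D5 was lowest and most uneven, at 1.21, 13.3, 1.12 and 7.08 CPM (coefficient of variation 102%, against 3.2% in VQ-D1). Pooled over the group, the ratio of VQ-D2 to Control was 435 with a 95% counting interval of 149 to 2109, and that of VQ-D5 was 16.8 (5.62 to 82.3).

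Lamb1 separated the VQ lines from t-VK12653. Control held 0.992, 0.745 and 0.528 CPM, 7 reads in all. VQ-D1 held 196, 95.2, 113 and 56.4 CPM, VQ-D2 held 89.4, 135, 110.3 and 211, and VQ-D4 held 291, 150, 105 and 149. VQ-D5 was lower at 40.6, 26.6, 25.7 and 11.4 CPM. The 4 libraries of t-VK12653 held 0.432, 0.173, 0 and 0 CPM. These were 3 reads in all, a pooled ratio to Control of 0.225 with a counting interval of 0.0376 to 0.986. VQ-D4, VQ-D2 and VQ-D1 overlapped in that order of means (174, 137 and 115 CPM), and VQ-D5 and t-VK12653 each stood apart from the line above.

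Fam20a was also near its Control level in t-VK12653. Control held 0.992, 0.372 and 0 CPM (4 reads) and t-VK12653 held 0.216, 0.693, 4.87 and 0.682 CPM (24 reads). VQ-D1 was the high line, at 175, 191, 115 and 152 CPM. The other 3 VQ lines overlapped, at 24.2, 35.6, 18.8 and 39.2 CPM in VQ-D2, at 49.3, 19.8, 21.9 and 17.3 in VQ-D4 and at 15.2, 22.5, 14.8 and 29.0 in VQ-D5. The mean of VQ-D1 (158 ± 33.0 CPM) was 5.38-fold that of VQ-D2 (29.4 ± 9.57), and VQ-D5 (20.4 ± 6.75) was 12.6-fold above t-VK12653 (1.61 ± 2.18). In VQ-D1, Fam20a had the highest mean of the 7 on the TPM scale (148 TPM), ahead of Spats2 (132 TPM).

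Of the 20 tumour libraries, all lay above every Control library for Slc47a1, Atp6ap1l, Spats2 and Fkbp10. The number was 19 for Strc, 17 for Fam20a and 16 for Lamb1, the exceptions being libraries of t-VK12653. Among all 13965 genes tested against Control, 6.47% had every tumour library above every Control library. The members were chosen for this contrast, so nothing is read from the difference. In the whole table, 21 genes had at most 3 Control reads and a mean of at least 10 CPM in at least 3 lines. Strc, Slc47a1, Atp6ap1l, Spats2 and Fkbp10 were among them. Lamb1 and Fam20a were just outside, with 7 and 4 Control reads, and entered with up to 10 reads (55 genes). Another of the 21 was Cdh19, a cadherin (1 Control read, 234 CPM in VQ-D1 and 0.0286 in VQ-D5). So was Lin28b, which blocks the maturation of let-7 microRNAs (no Control read, 69.9 CPM in VQ-D1 and 0.0385 in VQ-D2). When 10 CPM were asked of all 5 lines, Spats2 alone was left.

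Differences between the lines were tested among the 20 tumour libraries with Control left out, with edgeR's quasi-likelihood test on counts, terms for line and tissue, and Benjamini-Hochberg adjustment over 12276 genes. Each line was set against the mean of the other 4. The selection asked for a high level in most lines, so it left room for low lines and these tests are not free of it. Calls were common among all genes: 64.3% in t-VK12653, 61.5% in VQ-D5, 57.9% in VQ-D2, 53.3% in VQ-D4 and 49.7% in VQ-D1. Of the 7 members, 5 were higher and 1 lower in 3 VQ lines, VQ-D1, VQ-D4 and VQ-D2. In VQ-D5 1 was higher and 4 were lower, and in t-VK12653 3 were higher and 4 lower. The median log2 fold change of the 7 was -1.11 in t-VK12653, -0.53 in VQ-D5, 0.76 in VQ-D4, 0.62 in VQ-D2 and 1.43 in VQ-D1, where that of all genes lay between -0.01 and 0.04.

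**Figure D2:**
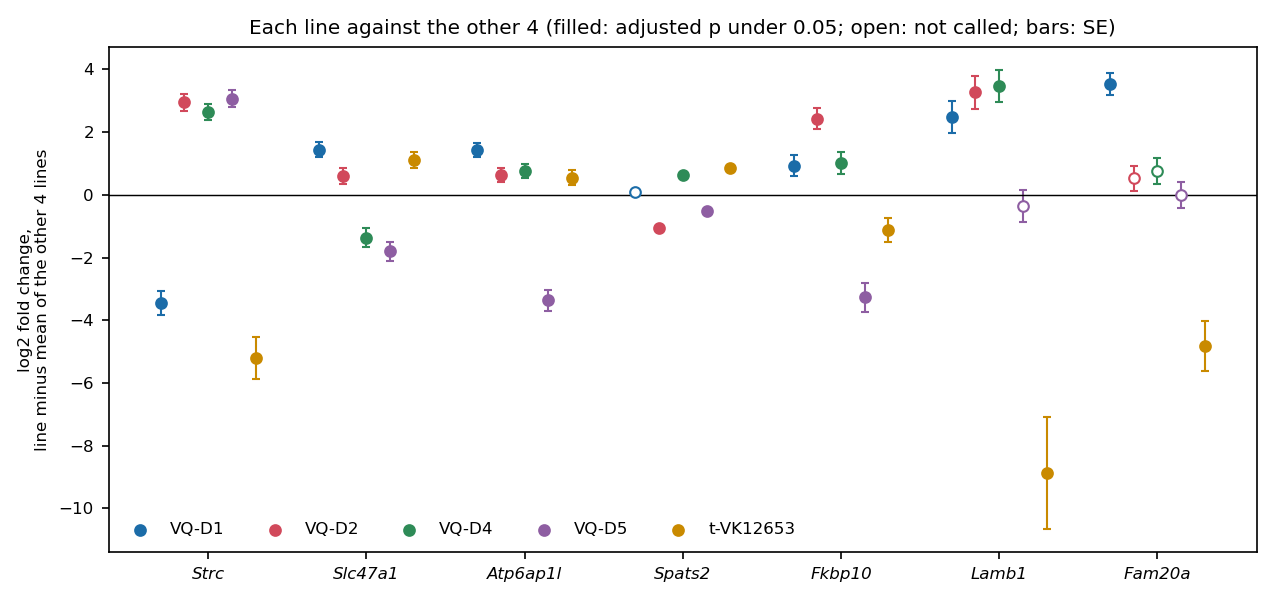
Log2 fold change of each line against the mean of the other 4 (vertical axis, bars are SE of edgeR's fit), for each gene on the horizontal axis; filled points passed an adjusted p of 0.05. Lamb1 in t-VK12653 has the lowest value, -8.87, and VQ-D5 is low for Atp6ap1l and Fkbp10 but not for Strc.

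Strc was higher in VQ-D5 (log2 fold change 3.06, SE 0.272, adjusted p = 5.18e-09 by edgeR), VQ-D2 (2.95) and VQ-D4 (2.64), and lower in VQ-D1 (-3.44, SE 0.385) and t-VK12653 (-5.21, SE 0.664). Slc47a1 was higher in VQ-D1 (1.44) and t-VK12653 (1.11) and lower in VQ-D4 (-1.36) and VQ-D5 (-1.80). The 2 genes thus took opposite signs in every line but VQ-D2. Over the 20 tumour libraries their log2(CPM + 1) values had a Pearson r of -0.61, the lowest of the 21 pairs of members. These libraries share 5 donors, so r describes differences between lines.

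Atp6ap1l was lower in VQ-D5 (-3.37, SE 0.322, edgeR adjusted p = 6.27e-09) and higher in VQ-D1 (1.43). Fkbp10 was lower in VQ-D5 too (-3.27, SE 0.461, edgeR adjusted p = 2.31e-05) and higher in VQ-D2 (2.43). This pair had the highest r of the 21, 0.83. Spats2 changed least between lines, by -1.06 in VQ-D2, -0.53 in VQ-D5, 0.64 in VQ-D4 and 0.87 in t-VK12653, all called with an SE of 0.074 to 0.077, while VQ-D1 was not called (0.08, edgeR adjusted p = 0.364).

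Lamb1 was higher in VQ-D4 (3.47, SE 0.511), VQ-D2 (3.27) and VQ-D1 (2.49) and lower in t-VK12653 (-8.87, SE 1.80, edgeR adjusted p = 2.29e-08). VQ-D5 was not called (-0.35, 95% interval from the SE -1.37 to 0.67). Fam20a was higher in VQ-D1 (3.54, SE 0.364, edgeR adjusted p = 1.11e-06) and lower in t-VK12653 (-4.82, SE 0.810). In VQ-D2, VQ-D4 and VQ-D5 it was not called, with intervals of -0.25 to 1.32, -0.05 to 1.56 and -0.80 to 0.80. The Lamb1 and Fam20a pair had the second highest r, 0.81. Of the 30 calls of members between lines, 23 held in every alternative of scaling, filter, test and left-out library. The other 7 were calls of Fkbp10 in VQ-D1 (log2 fold change 0.93), VQ-D4 (1.03) and t-VK12653 (-1.11), of Atp6ap1l in VQ-D2 (0.62), VQ-D4 (0.76) and t-VK12653 (0.55) and of Slc47a1 in VQ-D2 (0.62), whose highest adjusted p over the alternatives (edgeR or DESeq2) lay between 0.0738 and 0.197.

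Pooled over the 4 VQ lines, Lamb1 was 667 times its level in t-VK12653 (95% counting interval 228 to 3236), Strc 71.9 times (40.1 to 144) and Fam20a 46.5 times (31.2 to 72.6). Most reads of these genes in t-VK12653 lie in single libraries: without the highest library the ratio was 114 (57.9 to 264.5) for Fam20a, 107.6 for Strc and 1490.0 for Lamb1. Fkbp10 was at a pooled ratio of 3.71 (3.29 to 4.18), but VQ-D5 lay below t-VK12653. The pooled ratio of Spats2 was 0.661, with VQ-D4 overlapping t-VK12653, and that of Slc47a1 was 0.718, with VQ-D1 above t-VK12653 and VQ-D2 overlapping it. With 1 line without the Nras allele, genotype and donor cannot be told apart here.

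Within the lines, tissue was compared in the same fit. By edgeR 6 genes (0.0489% of those tested) were called between spleen and bone marrow and 2 (0.0163%) between lymph node and bone marrow, and none of the 7 members was among them. At an unadjusted p under 0.05 there were 827 and 896 genes, and 1 and 2 members. The 6 genes called in spleen were all lower there and include neutrophil genes, such as Elane (-4.13) and Camp (-2.99). The DESeq2 alternative called 30 and 34 genes.

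Lamb1 had the largest tissue difference of the members. In bone marrow it was at 196 and 113 CPM in VQ-D1, against 95.2 and 56.4 CPM in the spleen libraries that carry the same number in the names of the deposited tables. The VQ-D4 bone marrow library held 291 CPM, the spleen library of that number 105 CPM and the lymph node library 149 CPM. In VQ-D5 bone marrow held 40.6 and 26.6 CPM and lymph node 25.7 and 11.4 CPM. The second tissue was lower in each of these 6 pairs outside t-VK12653, whose 2 pairs of 0 to 0.432 CPM are too low to compare. The fitted log2 difference was -1.19 for spleen (SE 0.282, unadjusted p = 0.000979, edgeR adjusted p = 0.282) and -0.77 for lymph node (SE 0.295, edgeR adjusted p = 0.576). Spleen passed the threshold with the shared number as a block (-1.19, adjusted p = 2.02e-06), with DESeq2 (-1.20, adjusted p = 0.00627) and with no filter on low counts (-1.17), over a range of 1.12e-19 to 0.712 in 26 alternatives. Lymph node passed with that block (-0.80, edgeR adjusted p = 0.000945) and with no filter. VQ-D2, which has no bone marrow library, held less Lamb1 in spleen (89.4 and 135 CPM) than in lymph node (110.3 and 211).

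Neutrophil marker sums moved with tissue as well. They were 1275 and 370 CPM in the bone marrow libraries of VQ-D1 against 27.2 and 171 in spleen, and 72.6 CPM in the bone marrow library of VQ-D4 against 6.27 in spleen. In VQ-D5 they were 84.5 and 135 CPM in bone marrow against 4.35 and 5.03 in lymph node. Their part in the Lamb1 difference was not tested.

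For the other 6 members the fitted tissue differences were smaller, although single pairs differed more, such as Slc47a1 by -2.08 between lymph node and bone marrow. Spats2 was higher in lymph node in 3 of 3 pairs, by 0.29 to 0.31 in log2(CPM + 1), with a fitted difference of 0.32 (SE 0.084, edgeR adjusted p = 0.281). Atp6ap1l was higher in lymph node in 3 of 3 pairs too (0.84 to 1.48, with a fitted 0.55, edgeR adjusted p = 0.731). Strc was lower there in 3 of 3 pairs (-0.17 to -0.09), while its fitted difference was 0.08 (edgeR adjusted p = 0.964). The share of all genes with 1 direction in 3 of 3 pairs was not counted, so nothing is read from these counts. Spleen intervals for the 6 were widest for Fam20a (-0.86 to 0.58), so changes of that size cannot be told from none.

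The numbers in the table names, which the labels do not explain, give each line 2 sets of libraries. Setting the second set against the first within a line, with tissue as a term, was chosen after the values were seen. By edgeR 4.06% of 12383 genes were called in t-VK12653, 0.743% in VQ-D5, 0.355% in VQ-D2 and 0.363% in VQ-D1. VQ-D4 was not tested, as its second set is the liver library alone. Members were called 4 times. Lamb1 was lower in the second set in VQ-D1 (-0.78, SE 0.138, edgeR adjusted p = 0.0129) and VQ-D5 (-0.91, SE 0.170, adjusted p = 0.0105) and higher in VQ-D2 (0.75, SE 0.138, adjusted p = 0.0128). Fkbp10 was higher in the second set of VQ-D5 (3.0, SE 0.661, edgeR adjusted p = 0.0236): its libraries at 13.3 and 7.08 CPM belong to that set and those at 1.21 and 1.12 CPM to the other. Each of the 4 calls was lost when some library of the line was left out, which leaves 1 set with 1 library. The fold changes in those fits were -0.63 to -0.92 for Lamb1 in VQ-D1 (adjusted p up to 0.367), 0.61 to 0.76 in VQ-D2 (up to 0.411) and -0.67 to -0.76 in VQ-D5 (up to 0.534), and 2.94 to 3.04 for Fkbp10 (up to 0.536).

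**Figure D3:**
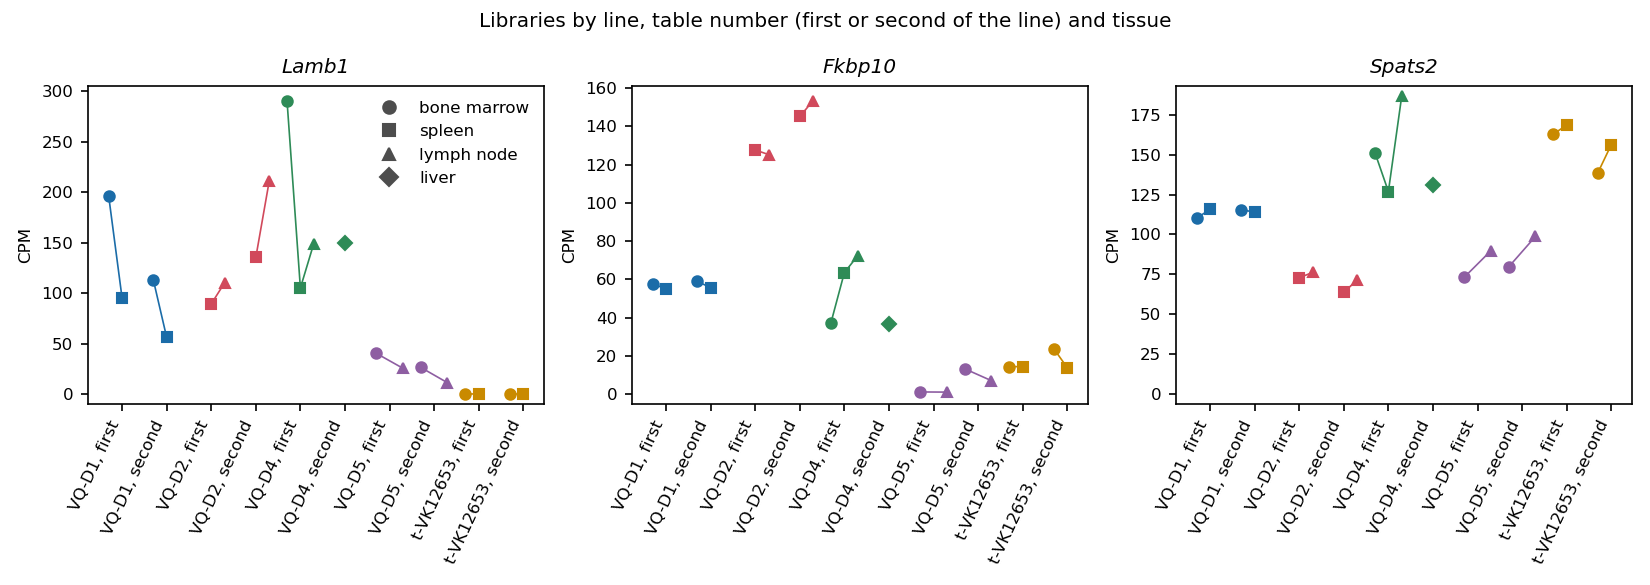
CPM of Lamb1, Fkbp10 and Spats2 (vertical axes, linear from 0) in the libraries of each line, placed by the number in the table names (first or second of the line) and joined within it; marker shapes give the tissue. Lamb1 falls from bone marrow to spleen or lymph node in VQ-D1, VQ-D4 and VQ-D5, and Fkbp10 in VQ-D5 is above 7 CPM in the second set alone.

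Markers of stroma, which makes laminins and collagens, were checked beside these values. The stromal list of 16 genes summed to 195.5 to 217.5 CPM in Control, 401.5 to 585 in VQ-D4, 214 to 378 in VQ-D1, 227 to 284 in VQ-D5, 130.2 to 238 in VQ-D2 and 68.7 to 123 in t-VK12653. Most of that sum was Alpl, an alkaline phosphatase (284 CPM in VQ-D1 and 457 in VQ-D4). In the lines the next highest means were those of Runx2 (12.0 CPM in t-VK12653), Lepr (12.0 in VQ-D4), Col1a1 (6.41 in t-VK12653) and Cxcl12 (5.56 in VQ-D1), and each of the other 11 was at most 2.12 CPM. Control held 104 CPM of Runx2 and 32.6 CPM of Cxcl12. Of 10 tested against Control, 1 was higher and 3 were lower. Lum had no read in any group but VQ-D1. In the 2 sets of VQ-D1 the stromal sum was 374 and 378 against 240.1 and 214 CPM and the endothelial sum 375 and 326 against 130.4 and 127.5 CPM, in the same direction as Lamb1. In VQ-D2 the stromal sum was 130.2 and 206 CPM in the first set and 165 and 238 CPM in the second, and the macrophage sum 126.5 and 76.8 against 365 and 322 CPM, again in the direction of Lamb1. In VQ-D5 the macrophage sum was 21.7 and 17.4 against 42.2 and 32.8 CPM, opposite to Lamb1 and in the direction of Fkbp10. The macrophage sum of VQ-D1 (694 and 587 against 761 and 852 CPM) was also opposite to Lamb1. The endothelial sum moved in the direction of Lamb1 in VQ-D2 as well (24.5 and 21.2 against 32.2 and 25.3 CPM). It did so too in VQ-D5 (41.5 and 35.8 against 28.4 and 28.8 CPM), where the stromal sum took no single direction (237 and 258 against 227 and 284 CPM). In the fit between lines, 7 of 14 macrophage markers and 2 of 12 endothelial markers had enough reads to be tested. Against Control 8 of 13 macrophage markers were lower. Yet their sum in t-VK12653 (717 to 1175 CPM) lay within that in Control (521 to 1733 CPM). These sums may thus rest on few genes and need not follow most of their list. The part of any of these lists in the differences between sets was not tested. The liver library of VQ-D4 held 727 CPM of the endothelial cadherin Cdh5, against 0 to 8.60 CPM in all other libraries, and its Lamb1 (150 CPM) lay within the range of the other 3 libraries of the line.

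Genes of the same pathways were taken from lists and compared between 5 line sums and the 3 Control libraries with edgeR. In this fit 9.8% of genes were called higher and 8.46% lower in the tumour lines. On simulated counts it recovered only 10.5% of genes changed 4-fold, so a gene that was not called may still differ. The lists leave the members out.

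Among laminins and basement membrane genes 12 were tested, 3 were higher and 1 was lower, with a median log2 fold change of 1.26 against 0.17 for all genes. Those higher include Lamb2 (4.09, SE 0.625, edgeR adjusted p = 0.00876), the β2 chain, and Lamc1 (2.08, SE 0.341), the γ1 chain. Nid1, the nidogen that links laminin to collagen IV, was lower (-4.65, SE 0.956). On the TPM scale Lamc1 was the most abundant chain in every group, from 47.9 TPM in Control to 309 in VQ-D1. Lamb2 was at 19 to 55.1 TPM in the lines and highest in t-VK12653, where Lamb1 had 3 reads. The α chains Lama1, Lama2, Lama3 and Lama4 were under 0.2 TPM in every group. Lama5 was at 18.1 TPM in t-VK12653, 4.83 in VQ-D4 and at most 1.5 in the other groups, and did not pass the test (4.05, edgeR adjusted p = 0.0967). With 1 Control library left out, 1 or 2 of the list passed as higher and none as lower, and DESeq2 called 6 higher. Lamb2 passed in all 13 alternatives. Of 9 laminin receptor genes tested, 1 was higher: Rpsa (1.30, SE 0.191), a ribosomal protein that also binds laminin and has many near-identical pseudogenes, so its count is uncertain.

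**Figure D4:**
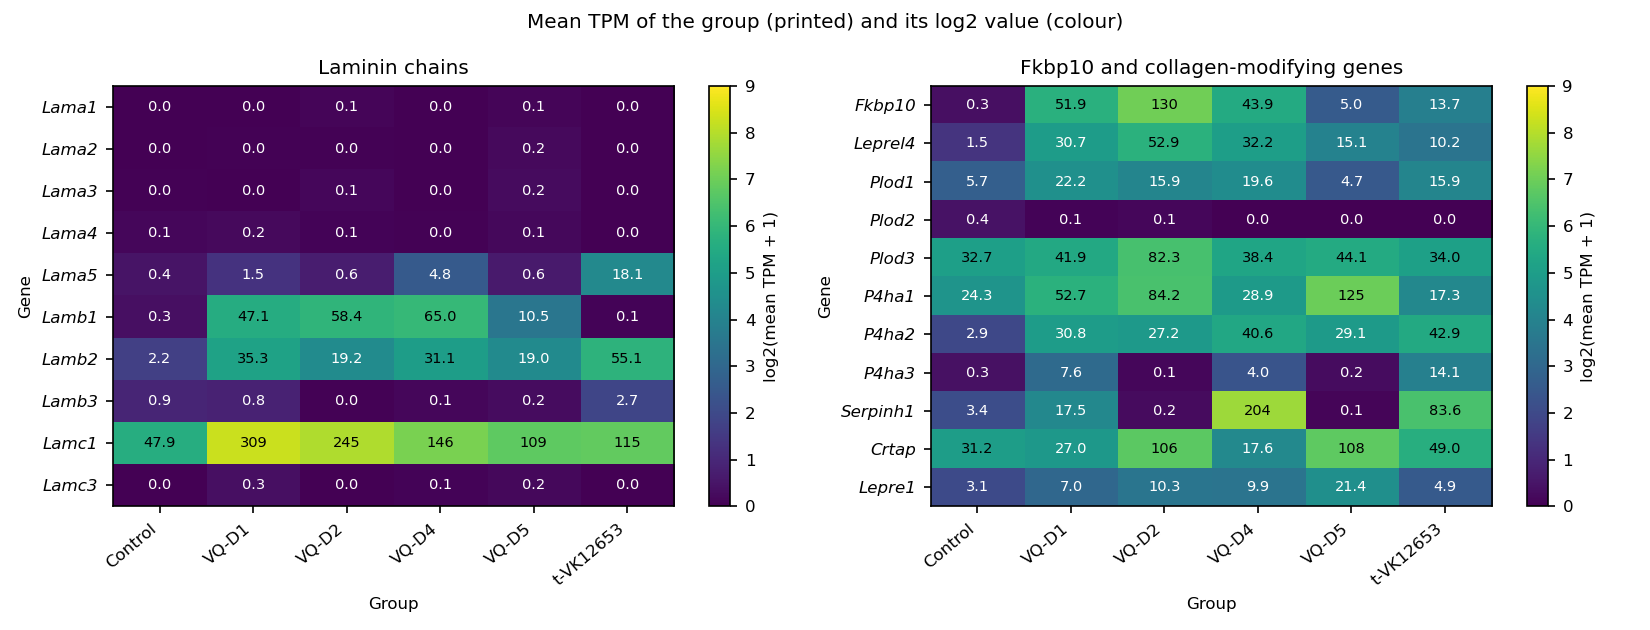
Mean TPM per group, printed in each cell and coloured as log2(TPM + 1), for laminin chain genes (left) and for Fkbp10 with collagen-modifying genes (right). Lamb1 and Lama5 are high in different lines, and Leprel4 (P3h4) and Fkbp10 are both highest in VQ-D2.

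Among 13 tested genes of collagen modification, 5 were higher and none lower: P4ha2 (3.76, SE 0.557, edgeR adjusted p = 0.00699) and P4hb (1.27), subunits of prolyl 4-hydroxylase, Ppib (1.04), a cyclophilin, Lepre1 (1.96), a prolyl 3-hydroxylase, and Leprel4 (4.35, SE 1.10, edgeR adjusted p = 0.0400), now called P3h4, part of a collagen lysine hydroxylation complex. Their median log2 fold change was 1.46. With relative log expression (RLE) scaling 4 passed, 7 with DESeq2, 6 without t-VK12653, 3 without VQ-D1, VQ-D2 or VQ-D4 or with bone marrow libraries alone, and 1 or 2 with a Control library left out. Plod2, the lysyl hydroxylase whose activity FKBP65 supports, was at 0 to 0.125 TPM in the lines and at 0.365 in Control. Serpinh1, the collagen chaperone HSP47, was at 204 TPM in VQ-D4 and 83.6 in t-VK12653 but at 0.201 TPM in VQ-D2, the line with the most Fkbp10. The FK506-binding family gave 4 higher of 13 tested: Fkbp11 (2.78), Fkbp14 (1.89), Fkbp1a (1.66) and Fkbp5 (1.45). With RLE scaling 3 passed, and none with any 1 Control library left out, a fit in which 753 to 1083 genes were called in place of 2551.

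Genes related to the other members gave few calls, in the same fit of low recovery, so these are not findings of no change. Of 9 organic cation and drug transporters tested, none passed by edgeR, with 1 higher and 3 lower at an unadjusted p under 0.05 and the same numbers called by DESeq2, and Slc22a2, an uptake transporter for organic cations in kidney, was at or under 0.0657 TPM in every group. V-ATPase subunits gave none higher by edgeR (3 at an unadjusted p under 0.05, 1 by DESeq2) and 2 lower of 21 tested, Atp6v0d1 (-0.93) and Atp6v0d2 (-5.23), and Atp6ap1 itself was not called (0.32, edgeR adjusted p = 0.611). Neither Spats2l nor Spats1 was called by edgeR or DESeq2 (1 at an unadjusted p under 0.05). Among secretory pathway kinases none of 5 passed by edgeR or DESeq2 (1 at an unadjusted p under 0.05), and Fam20c, the kinase that FAM20A activates, was at most 0.161 TPM in the lines and 0.707 TPM in Control. Among 6 hair cell and mesothelin family genes tested beside Strc, those lower include Cdh23 (-2.06), a cadherin of hair cell tip links, and Ceacam16 (-2.96), and neither call held in every alternative.

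The genes next to the members were read in the same way. Fkbp10 lies between Leprel4, 977 bases away on the other strand, and Nt5c3b, a nucleotidase gene on the opposite strand with which it shares 193 exon bases. Both neighbours were higher in the tumour lines, Nt5c3b by 1.87 (SE 0.320, edgeR adjusted p = 0.00928). The call of Leprel4 was lost in 7 of 13 alternatives, with adjusted p up to 0.119. Leprel4 was at 1.21 CPM in Control and at 8.82 in t-VK12653, 12.1 in VQ-D5, 24.1 in VQ-D1, 27.7 in VQ-D4 and 40.1 in VQ-D2. Among the lines it was higher in VQ-D2 (1.19, edgeR adjusted p = 3.43e-07) and VQ-D4 (0.57) and lower in VQ-D5 (-0.81) and t-VK12653 (-1.27), the signs of Fkbp10 in those 4 lines. Nt5c3b had a smaller range, from 24.3 CPM in t-VK12653 to 57 in VQ-D2. It was higher in VQ-D2 (0.72) and lower in t-VK12653 (-0.42), as Fkbp10 was. In VQ-D4 Nt5c3b was lower (-0.29), where Fkbp10 was higher. The strand setting of the counting was not given in the sources used here, so reads in the shared bases may be assigned to either gene.

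Strc overlaps the end of Ckmt1, a mitochondrial creatine kinase gene on the opposite strand, by 490 bases of which 10 are exonic in both. Ckmt1 had no Control read and 0.143 to 5.29 CPM in the lines, and was not called against Control by edgeR (adjusted p = 0.0641) but was by DESeq2 (0.00842). Among the lines it was higher in VQ-D2 (2.24), VQ-D5 (1.42) and VQ-D4 (1.09) and lower in VQ-D1 (-1.26) and t-VK12653 (-3.49, edgeR adjusted p = 2.00e-05), the signs that Strc had. The unknown strand setting bears on this pair as well. Next on either side, Ppip5k1 and Catsper2 were not called against Control. Among the lines Ppip5k1 was higher in VQ-D1 (0.70) and lower in VQ-D5 (-0.42), opposite to Strc. It had the sign of Strc in VQ-D4 (0.73) and t-VK12653 (-0.98), and Catsper2 was called in no line. Slc47a2, the paralogue 539 bases from Slc47a1, was at 0.124 CPM in Control and 0.317 to 2.04 in the lines, too low to test. On 1 side of Fam20a, at a distance of 65102 bases, 1700012B07Rik had no Control read and 0.613 CPM in VQ-D5 to 8.23 in VQ-D2 (called higher, edgeR adjusted p = 0.0219, lost in 3 of 13 alternatives), while Prkar1a, 82 bases away, was not called (0.09). Among the lines 1700012B07Rik was higher in VQ-D1 (0.82), as Fam20a was, but also in t-VK12653 (0.99), where Fam20a was lower. Prkar1a was higher in VQ-D1 (0.31) and lower in t-VK12653 (-0.66), the signs of Fam20a. Rps23, a ribosomal protein gene with near-identical copies, was higher beside Atp6ap1l (1.66). Between the lines it was higher in VQ-D5 (0.68) and lower in t-VK12653 (-0.58), opposite to Atp6ap1l. Beside Lamb1, Dld was not called (0.73, edgeR adjusted p = 0.118). The nearest genes of Spats2, Dnajc22 and Kcnh3, were at most 0.385 CPM in every group.

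For each member, the 3 genes with the most similar profile over the 20 tumour libraries were found among 9536 genes with a mean of at least 5 CPM. As the libraries share 5 donors, these r values describe profiles over the lines. Strc was most like Spred1, an inhibitor of Ras signalling (r = 0.98, with 0.269 CPM in VQ-D1, 0.0760 in t-VK12653 and 135 in VQ-D5), Trps1 and D8Ertd82e. These 3 were present in Control, with Spred1 at 10.6 CPM. Fkbp10 was most like Cdcp1 and Epcam, both epithelial surface proteins (r = 0.94 each), and Cnn2. Atp6ap1l was most like Crb3, Lsr and F11r, all genes of epithelial cell junctions (r = 0.95 each), which were at 6.98, 18.9 and 3.44 CPM in Control and at 0.0311, 26.5 and 2.16 CPM in VQ-D5.

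Slc47a1 was most like Hspa4l, Bbx and Ddb2 (r = 0.89 to 0.91) and Spats2 like Syngr1, Gabarap and Gdap2 (0.94 to 0.95). Lamb1 was most like Pik3ap1 (0.97), Tlr4, the endotoxin receptor (0.97), and Chd8 (0.96). Tlr4 was at 21.0 CPM in Control, 0.653 in t-VK12653, 7.54 in VQ-D5 and 16.7 to 23 in the other 3 lines. Fam20a was most like Atad1, Mtmr6 and Tm9sf2 (0.93 each). All 21 similar genes had more Control reads than any member: the lowest were Cdcp1 (1.25 CPM, 11 reads) and Syngr1 (1.65 CPM, 15 reads). The members were chosen for few Control reads and the similar genes were not, so nothing is read from this difference.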

How the data were processed

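RNA of CD138+B220- cells was measured in 23 libraries, 3 Control and 4 for each of 5 lines. Per the labels' protocols, RNA was extracted with a micro column kit and libraries with a strand-keeping kit for very small amounts of total RNA. The submitters' processing notes name STAR, featureCounts, DESeq2, GRCm38 and mm10, without versions. Annotation and strand setting were not given in the sources used here. Count columns hold whole read counts per gene, deposited by the authors and not normalized. The TPM columns hold values that the authors scaled to length and depth, and were used for levels between genes only. The deposited FPKM columns were not used.

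The members and the gene lists were chosen with earlier results of these data known. CPM is the count over the library total. Tests were edgeR 4.0.16 quasi-likelihood F-tests in R 4.3.3 (TMM scaling, filterByExpr with a count minimum of 10 and a total of 15, Benjamini-Hochberg adjustment over all genes tested, threshold 0.05). Lines and tissues were compared in 1 fit of the 20 tumour libraries. The 2 sets of table numbers were compared in a fit of 19 libraries without liver. Tumour against Control used counts summed per line (5 against 3) for related genes alone, and has no tissue term, as all Control libraries are bone marrow. On simulated counts, genes changed 4-fold were recovered at 95.5% for a line, 93.5% for spleen, 88.5% for a table number and 10.5% against Control. Similar genes were ranked by Pearson r of log2(CPM + 1). Named genes are the 7 members, the 3 most similar genes and the nearest neighbours of each, and in each list those with the largest called change or the highest level. Alternatives were RLE scaling, no filter, DESeq2 1.42.0, counts without Rn45s, blocks and left-out libraries or lines. Gene positions and promoters are from RefSeq, and strands and shared exon bases from GENCODE vM21 on GRCm38. Intervals of pooled ratios cover counting error only, and those of log2 fold changes come from the SE of edgeR's fit. Results for some listed genes are not reported here.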

Additional observations from a re-analysis of the deposited data

Results flagged for a closer look

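In 5 of 35 groups of 4 libraries, 1 library stood so far from the other 3 that its gap to the nearest, over the range of the group, passed Dixon's 95% critical value for 4 values. Chance flags about 1 group in 20. Slc47a1 was lowest in replicate 1 of VQ-D1, at 36.9 CPM, with the other 3 libraries at 40.5 to 40.8. Atp6ap1l was highest in replicate 4 of VQ-D1, at 31.6 CPM. Fkbp10 was highest in replicate 3 of t-VK12653, a bone marrow library, at 23.7 CPM. Fam20a was highest in the bone marrow library of VQ-D4, at 49.3 CPM, the library in which Lamb1 was also at its highest in that line. Fam20a was also highest in replicate 3 of t-VK12653, at 4.87 CPM.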

How the results depend on the processing

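Of 1883 fold changes of members under alternatives, 1817 kept their side of the threshold, 54 lost and 12 gained the call. The sign changed in 55, none of them called in either fit, and no called fold change reversed. For related genes these were 298, 67 and 3 of 368. Of 245 group means, 21 moved by more than 1 SD. Counts of genes called between lines and against Control stayed within 1.5 times under RLE scaling, no filter, DESeq2 and without Rn45s. With libraries left out they ranged from 6345 to 7231 in VQ-D2, 5299 to 6172 in VQ-D1, 5199 to 6650 in VQ-D4, 6836 to 7667 in VQ-D5, 7354 to 7986 in t-VK12653 and, against Control, 753 to 1083. Spleen gave 184 genes with no filter, 30 with DESeq2, 18 with the table number block and 1 to 15 with libraries left out. Lymph node gave 265, 34, 30 and 0 to 9. Between table numbers, no filter gave 759 genes in t-VK12653, 323 in VQ-D5, 244 in VQ-D2 and 257 in VQ-D1, and DESeq2 gave 97 in VQ-D2 and 78 in VQ-D1. With libraries left out the ranges were 121 to 645, 7 to 129, 12 to 85 and 7 to 69 in the same order. The cause was not tested. Genes near 0 in Control and high in most lines numbered 1 (all 5 lines), 8 (at least 20 CPM) and 55 (up to 10 Control reads) in place of 21. Replicate numbers were not taken to pair the samples in the main fit, although same-numbered pairs were more often alike. Over 40 such pairs the correlation of deviations was -0.12 to 0.23, with 11 over 0.1 against 3 of 120 other pairs. All 4 same-numbered pairs of VQ-D2 with VQ-D5 were over 0.1. The cause of this likeness was not tested. With the replicate block, lymph node gave 10 genes, other counts stayed within 1.5 times, and 3 member calls were lost: Fkbp10 in VQ-D1 (0.74, edgeR adjusted p = 0.0785), Slc47a1 in VQ-D2 (0.50, 0.0644) and Atp6ap1l in t-VK12653 (0.48, 0.105). RLE scaling moved the median of all genes against Control by -0.07. Leaving out a Control library leaves few degrees of freedom, and the depth of 3 Control libraries limits low genes.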
